A study of Caenorhabditis elegans with 4 samples.

Results

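The broadest stretches of DNA occupied by RNA polymerase II in *Caenorhabditis elegans* embryos are described here. They are peaks of AMA-1 ChIP-seq replicate 2 that were 8000 bp or wider and overlapped a replicate 1 peak by at least 1 bp. The 3818 peaks of replicate 2 included 501 such domains, or 13.1%. They were chosen by their width in replicate 2 and by the overlap, so neither is a finding about them. The samples were mixed-stage embryos of the wild-type strain N2, a population of both males and hermaphrodites grown at 20 °C. The labels name 2 AMA-1 ChIP samples and 2 inputs, numbered as replicates 1 and 2, and do not say whether these came from separate cultures. Fixation was with 2% formaldehyde for 30 min, and AMA-1 was precipitated with a rabbit polyclonal antibody. A mixed-stage, whole-embryo sample averages over cell types and ages, so a domain may combine occupancy from different cells. No values of the inputs were analysed here.

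AMA-1 is the worm's largest RNA polymerase II subunit and carries the active site of the enzyme that makes messenger RNA. Its ChIP signal marks DNA where the polymerase sits, whether it is initiating, paused or elongating. The worm genome is compact: genes lie close together, and many are grouped in operons, in which neighbouring genes are transcribed from a shared promoter and the product is cut into separate messages by trans-splicing. A broad stretch of occupancy can therefore be a single long or heavily transcribed gene, an operon, or several neighbouring genes whose signals meet. Peak positions alone do not tell these apart. Coordinates are WS220, the build named in the file headers; no genome or gene annotation of that build was used here, so no gene is named and no sequence is shown.

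Replicate 1 held 2672 peaks and the series-level list 18518 much narrower peaks, which give the inner structure of the domains. Its derivation from the samples is not given in the sources used here, so it may rest on the same reads and is not a further replicate. As a measure of spread between replicates, the same rule was applied in mirror image: 253 peaks of replicate 1 were 8000 bp or wider and overlapped replicate 2. Of these mirrored domains, 239 (94.5%) overlapped a domain of replicate 2, and the same series-level list described both sets. They are thus largely the same regions outlined by each replicate, and not independent sets of regions. Most medians are given for both sets. The comparison group was the 1509 narrower shared peaks of replicate 2, and the 2067 of replicate 1 for the mirrored set. Peaks are not replicates, and with 2 samples an exact two-sided sign-flip test cannot go below p = 0.5, so differences between peak classes carry no test. Intervals in brackets are 95% Wilson intervals and cover counting error only. Read depth is unknown.

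The 501 domains ranged from 8005 to 32130 bp, with a median of 10694 bp and quartiles of 9235 and 13476 bp. Together they held 5917.7 kb, which was 33.9% of all bases in replicate 2 peaks and 47.8% of the bases in shared peaks. Just inside the width threshold lay peaks of 8005 bp on V (6105137 to 6113141), 8014 bp on III (4443255 to 4451268) and 8021 bp on I (3241820 to 3249840). Just outside lay peaks of 7997 bp on I (14060399 to 14068395), 7992 bp on II (1055767 to 1063758) and 7992 bp on IV (2322402 to 2330393). The 3 inside held 5, 4 and 5 series-level peaks, and the 3 outside held 1, 4 and 7.

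The widest domain was on III from 12595059 to 12627188, 32130 bp. Replicate 1 divided it into 5 peaks of 11651, 3012, 7049, 1717 and 1732 bp, which covered 78.3% of it. It held 16 series-level peaks covering 84.9%, and the strongest of these, at 12596741 to 12601717, lay near the left end. It was one of 3 inner peaks over 4000 bp there, and the others measured 5000 and 6826 bp. The right part, from 12620573 on, held 6 short peaks of 453 to 591 bp and a last one of 1441 bp. This domain thus combined long and short stretches of occupancy.

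The widest domain of II, from 8460841 to 8489983 (29143 bp), held 15 series-level peaks. One of 9773 bp was both the widest and the strongest. On V the widest domain ran from 13780590 to 13809341 (28752 bp), and its strongest inner peak lay at the left end, with a midpoint at 8.19% of the width. On IV it ran from 13012535 to 13038687 (26153 bp) and held 18 inner peaks, the highest number of any domain. A peak of 9448 bp filled its right end and was the strongest, and the other 17 measured 222 to 3418 bp. On I the widest ran from 7006362 to 7030889 (24528 bp), with 13 inner peaks and a strongest one of 1192 bp. The strongest peak was the widest in the domains of II and IV and not in those of I, III and V.

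The widest domain of X, from 9408322 to 9429208 (20887 bp), had the lowest replicate 1 cover of these 6 domains; over all 501 the lowest was 6.63%. Its strongest inner peak, of 4395 bp, was also the widest. A single replicate 1 peak of 3162 bp, with a score at percentile 4.0 of its list, covered 15.1% of it. Its 14 series-level peaks covered 75.9%. The runners-up were on II from 11612965 to 11638938 (25974 bp), on I from 10605664 to 10629960 (24297 bp), on III from 9042356 to 9065576 (23221 bp), on IV from 3998762 to 4021298 (22537 bp), on V from 11898663 to 11918802 (20140 bp) and on X from 3450198 to 3469627 (19430 bp). Replicate 1 covered 57.5% of the one on IV, 82.1% of the one on I and 91.8% to 99.0% of the other 4.

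**Figure D1:**
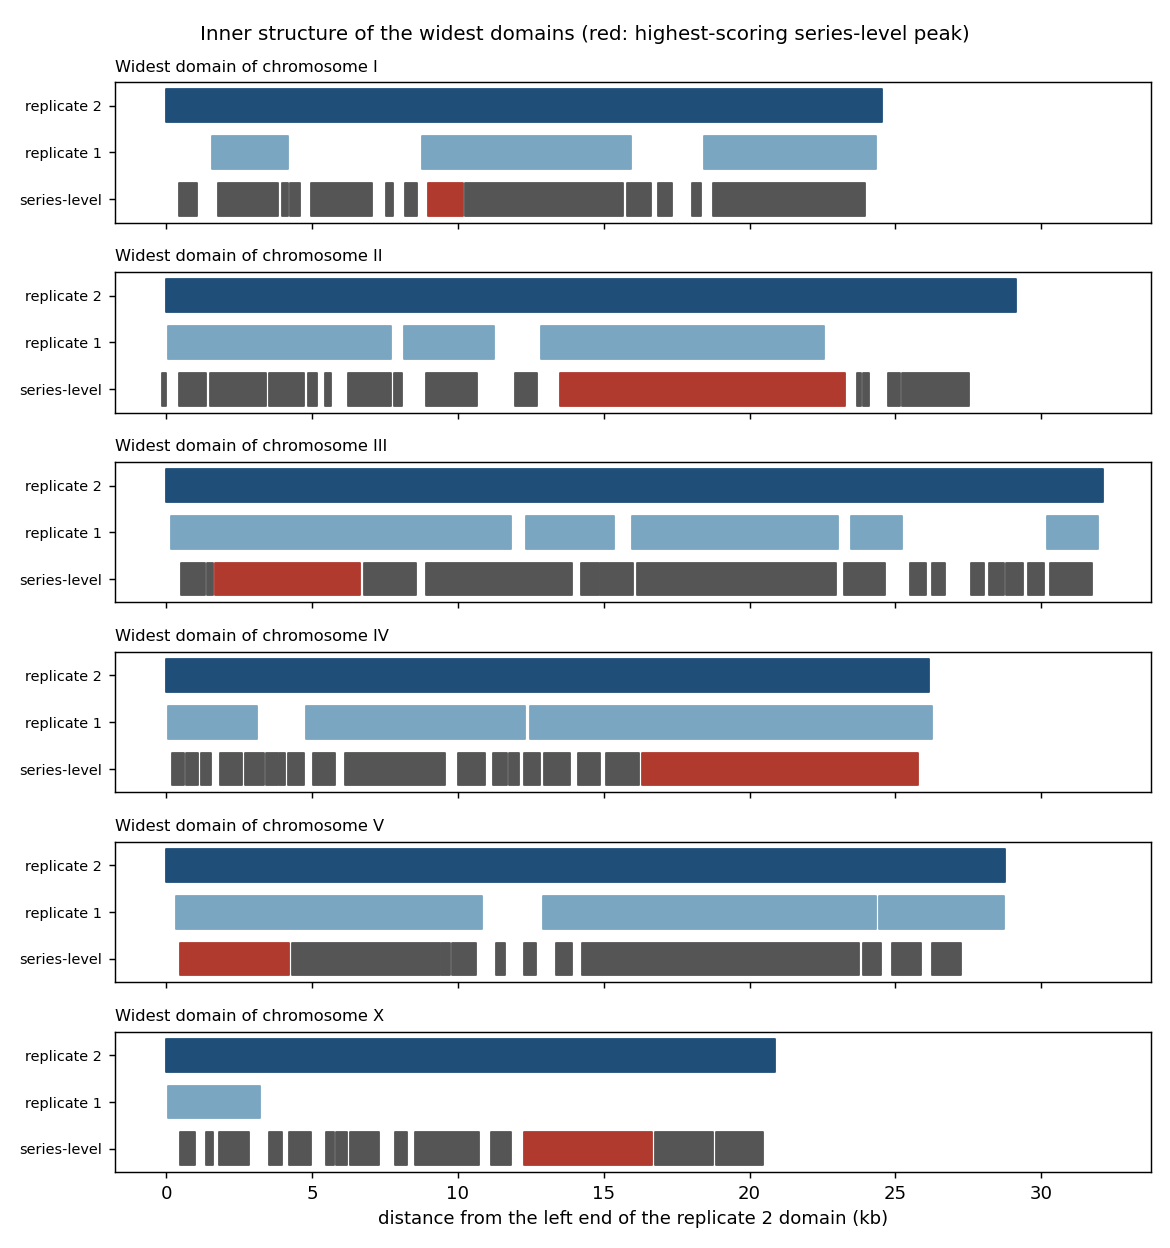
The widest domain of each chromosome, with the replicate 2 peak, the replicate 1 peaks and the series-level peaks drawn to scale against the distance from the left end of the domain in kb; red marks the series-level peak with the highest score. Replicate 1 divides the domain of III into 5 peaks and covers 15.1% of that of X.

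Each domain held 1 to 18 series-level peaks, with a median of 7 (quartiles 5 and 9); in mirrored replicate 1 domains the median was 5 (3 and 6). Of the 501 domains, 102 held 10 or more (20.4%, 17.1 to 24.1), against 3.04% of all replicate 2 peaks, and 6 held a single one. After the domain of IV with 18, the highest numbers were 17 each on I from 8099625 to 8121750 and on III from 4587264 to 4605608. The widest inner peak was 2572 bp in the one on I and 3725 bp in the one on III. Wider peaks have room for more, so the number was set per kb. The median was 0.604 per kb in domains and 0.715 in narrower shared peaks of replicate 2, and 0.446 and 0.701 in replicate 1. The mean over both replicates was 0.525 ± 0.11 per kb in domains and 0.708 ± 0.0098 in narrower shared peaks (SD, n = 2). Since every shared peak holds at least 1 series-level peak, the narrowest cannot have a low density. Against intermediate shared peaks, those of at least 4 and under 8 kb, the densities of domains were still lower, by 0.10 per kb in replicate 2 and by 0.15 in replicate 1.

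The domains were largely filled. Series-level peaks covered a median of 75.2% of a domain (quartiles 67.6% and 81.1%, range 26.9% to 95.0%) and 60.8% of a narrower shared peak. In replicate 1 the medians were 82.3% in mirrored domains and 70.4% in narrower shared peaks. The medians were higher in domains on 6 of 6 chromosomes in each replicate. A cover of 90% or more was found in 13 domains (2.59%, 1.52 to 4.39), against 0.393% of all replicate 2 peaks, and in 60 mirrored domains (23.7%, 18.9 to 29.3). A cover under 50% was found in 18 domains (3.59%) and in 378 narrower shared peaks (25.05%).

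Much of that difference lay at the ends. The stretch between the end of a replicate 2 peak and its nearest inner peak had a median of 450.5 bp in domains and 437 bp in narrower shared peaks, and such a margin is a larger part of a narrow peak. Between the outermost inner peaks, in replicate peaks with at least 2 of them, the cover was 82.8% in 495 domains and 79.8% in 1190 narrower shared peaks, and in replicate 1 it was 90.6% in 242 and 86.0% in 1426. That leaves out the peaks with a single inner peak, 6 domains and 319 narrower shared peaks in replicate 2 and 11 and 641 in replicate 1. With these counted as fully covered, the medians were 83.1% in domains and 84.8% in narrower shared peaks, and 91.0% and 91.7% in replicate 1. The sign of this contrast thus rested on how peaks with a single inner peak were treated. A window of fixed size away from the ends, the central 2000 bp, had a median cover of 89.95% in domains and 82.0% in the 771 intermediate shared peaks. Replicate 1 gave 100% in mirrored domains and 91.05% in 662 such peaks. In all narrower shared peaks of at least 2000 bp, the group looked at first, it was 78.05% in replicate 2 and 84.9% in replicate 1, but there the window can reach the uncovered ends. The median cover of the centre was thus higher in domains in both replicates.

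The median inner peak was longer in domains, and the gaps between inner peaks had about the same length. The part of an inner peak inside the domain had a median of 619 bp in domains and 564 bp in narrower shared peaks, and 829 bp and 666 bp in replicate 1. Neighbouring inner peaks were separated by a median of 236 bp in domains (3059 gaps, quartiles 125 and 429.5 bp) and 234 bp in narrower shared peaks (3147 gaps, quartiles 125 and 425 bp). In replicate 1 the gaps were 198 and 189 bp. The differences of 2 and 9 bp had an SD of 4.95 bp between replicates (n = 2). Against intermediate shared peaks the gap in domains was 7 bp shorter in replicate 2 and 7 bp longer in replicate 1, so the sign there differed between replicates. Outside all replicate 2 peaks, neighbouring series-level peaks lay a median of 663 bp apart (4063 gaps). Inner gaps are bounded by the replicate peak that holds them and gaps outside are not, so the lengths are not directly comparable. Midpoints of neighbouring inner peaks lay a median of 1151 bp apart in domains and 970 bp in narrower shared peaks.

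Long unbroken stretches were common. The widest inner peak of a domain had a median length of 3690 bp (quartiles 2331 and 5324 bp), against 1313 bp in narrower shared peaks. It reached 2000 bp in 408 domains (81.4%, 77.8 to 84.6), against 22.8% of all replicate 2 peaks. A length of 4000 bp was reached in 226 domains (45.1%, 40.8 to 49.5), against 4.71% of narrower shared peaks. A narrow peak leaves less room for such a stretch, and as a share of the width the widest inner peak took a median of 33.0% in domains and 37.1% in narrower shared peaks. Of all bases of domains, 41.8% lay in inner peaks of 2000 bp or more, and of all bases of narrower shared peaks 20.6%. Of only the bases that inner peaks covered, the shares were 56.4% in domains and 33.2% in narrower shared peaks. Of the 356 series-level peaks of 4000 bp or more, 240 overlapped a domain (67.4%, 62.4 to 72.1), against 19.2% of all 18518 series-level peaks. Domains were chosen for width, and a longer peak overlaps any region more easily. This contrast was not adjusted for either.

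The longest stretch, 15268 bp from 11902736 to 11918003 on V, took 75.8% of a domain of 20140 bp that replicate 1 covered at 98.6%. The next, of 14238 bp, lay on X in the domain from 16928815 to 16945759. That domain held 1 further inner peak, of 1866 bp at 16943570 to 16945435, just 58 bp away. The shorter one had the higher series-level score, 148.2 against 127.2. With 95.0% covered it was also the most fully covered domain. On II the domain from 13814170 to 13830043 held a stretch of 13699 bp and 1 other inner peak, 690 bp away. A domain on X from 2696670 to 2706782 was a single inner peak of 9373 bp over 92.7% of its width, and replicate 1 called nearly the same interval, 2696786 to 2706922. The domain on V held 6 inner peaks in all, and the other inner peak of the one on II was 373 bp long. In each of these domains 1 long stretch took 75.8% to 92.7% of the width.

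At the other extreme were domains with few or short inner peaks. The lowest cover, 26.9%, was on II from 8041164 to 8050906. All 3 inner peaks of that domain lay in its right part, from 8047105 on, where its only replicate 1 peak also lay (8047350 to 8050760), and the left 5941 bp held no inner peak. On X from 7494431 to 7502959, 8 inner peaks of at most 797 bp covered 37.6%. On II from 8279239 to 8293143 the cover was 38.1%, with all 3 inner peaks left of the centre, and replicate 1 covered the whole width with a peak of 14109 bp at percentile 1.5 of its list. A gap of 1000 bp or more between inner peaks was found in 63 domains (12.6%, 9.95 to 15.8), against 5.87% of all replicate 2 peaks. In the domain of IV from 3998762 to 4021298 the largest gap was 4266 bp, and 5 weak inner peaks lay to its left.

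**Figure D2:**
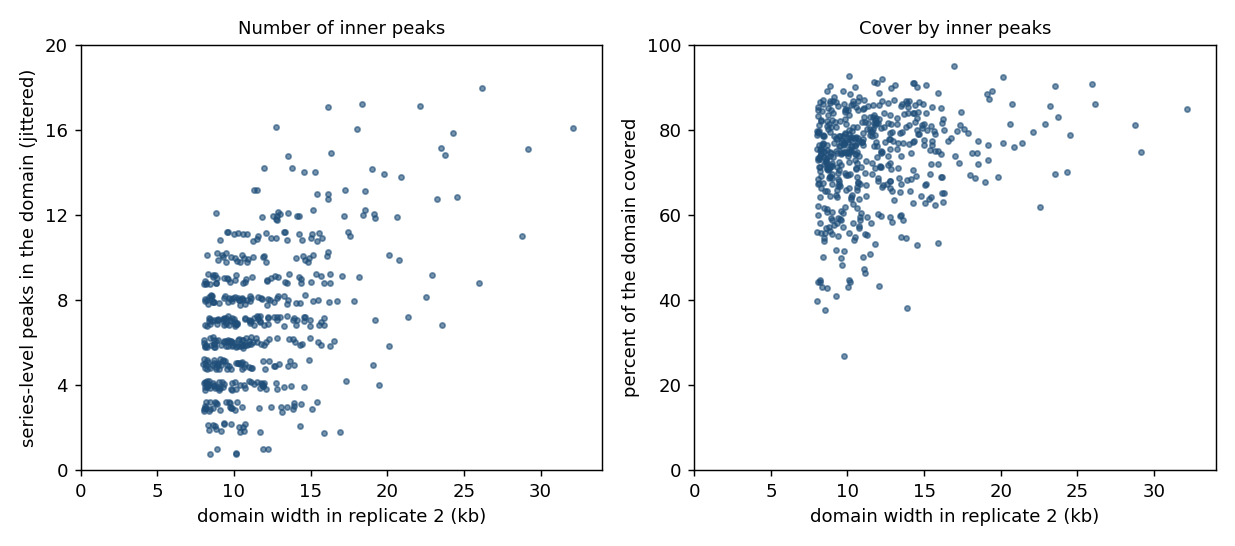
Number of series-level peaks in each of the 501 domains (left, with vertical jitter) and percent of the domain they cover (right), against the domain width in replicate 2 in kb; each point is a domain. The number spreads from 1 to 18, and the cover runs from 26.9% to 95.0%.

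The strongest inner peak could lie almost anywhere along a domain. Its midpoint fell in the central part of the width, from 33.3% to 66.7%, in 186 domains (37.1%, 33.0 to 41.4), against 56.8% of all replicate 2 peaks and 58.8% of narrower shared ones (56.3 to 61.2). A single point taken at random along the width would give 33.3%. The strongest inner peak had a median width of 2668 bp and lies inside the domain, so its midpoint cannot reach the ends. The 33.3% is therefore no baseline for it. The part to the left held 161 (32.1%) and the part to the right 154 (30.7%), similar shares on both sides. Coordinates run along the chromosome and not along genes, so a preference for promoters or gene ends could not appear here. In mirrored replicate 1 domains the central part held 53.0% (46.8 to 59.0) and in narrower shared peaks of replicate 1 62.7% (60.6 to 64.8). The share was lower in domains on 6 of 6 chromosomes in each replicate. The mean over replicates was 45.0% ± 11 in domains and 60.7% ± 2.8 in narrower shared peaks (SD, n = 2).

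That contrast depended on how wide the strongest peak was. A strongest peak that spans most of a replicate peak has its midpoint near the centre by construction. Among replicate peaks whose strongest inner peak took under 25% of the width, the central part held 24.0% of 258 domains and 29.3% of 512 narrower shared peaks in replicate 2, and 29.6% of 81 mirrored domains and 24.6% of 464 narrower shared peaks in replicate 1. The sign of the difference was opposite in the replicates. Against intermediate shared peaks the central part held 12.7 percentage points less of the domains in replicate 2 and 0.40 more of the mirrored domains in replicate 1. The central share was thus lower in domains than in all narrower shared peaks in both replicates, while under these 2 restrictions it was lower in replicate 2 and not in replicate 1.

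**Figure D3:**
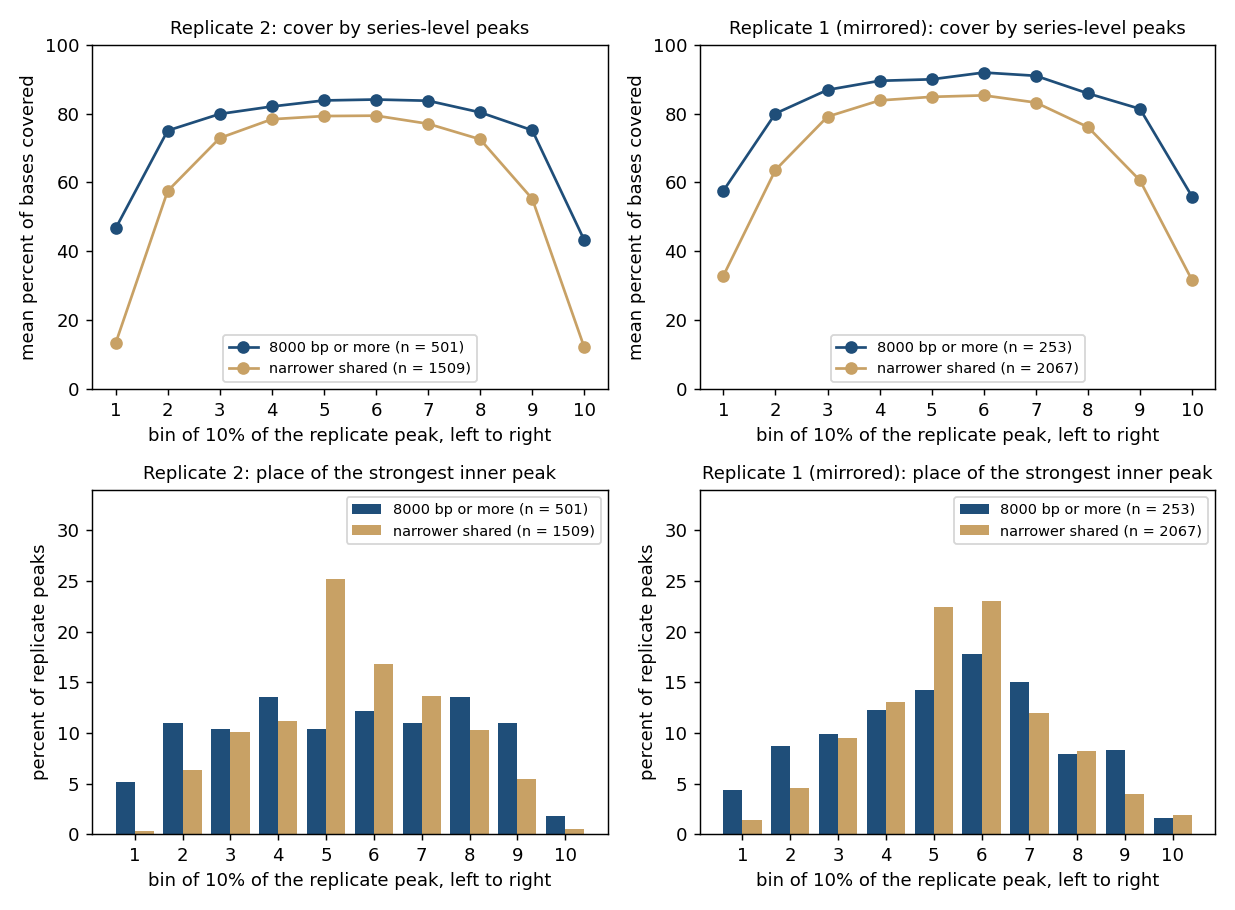
Mean percent of bases covered by series-level peaks in each of 10 equal bins along the replicate peak (top) and percent of replicate peaks whose strongest inner peak has its midpoint in that bin (bottom), for peaks of 8000 bp or more (blue) and narrower shared peaks (tan), in replicate 2 (left) and in replicate 1 (right). In replicate 2 bin 1 of a domain is covered at 46.6% and bin 6 at 84.1%, against 13.3% and 79.4% in narrower shared peaks.

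Many domains held more than 1 strong inner peak. The strongest inner peak had a median rank at percentile 96.2 of the series-level list in domains and 89.4 in narrower shared peaks. In replicate 1 these were 96.9 and 89.6. The strongest of many ranks higher than the strongest of few. Over all inner peaks the median percentile was 68.0 in domains and 61.9 in narrower shared peaks, and 75.9 and 70.9 in replicate 1. The strongest inner peak was also the widest in 300 domains (59.9%, 55.5 to 64.1), against 76.1% of all replicate 2 peaks. Among intermediate shared peaks of replicate 2 the share was 71.08%. In replicate 1 it was 69.96% in mirrored domains, 70.85% in intermediate and 80.79% in all narrower shared peaks. The contrast with intermediate peaks was thus seen in replicate 2 and was small in replicate 1. A single inner peak is always both strongest and widest. In replicate 2, 319 narrower shared peaks and 6 domains held just 1, which was not adjusted for. At least 2 inner peaks of the top score decile lay in 185 domains (36.9%, 32.8 to 41.2), against 7.31% of all replicate 2 peaks and 5.37% of narrower shared ones; in replicate 1 the shares were 32.0% and 5.13%. More inner peaks give more chances of a pair, and the share was not adjusted for their number. The 2 highest-scoring inner peaks of a domain lay a median of 3919.5 bp apart, midpoint to midpoint, in the 495 domains with more than 1. Of the 1852 series-level peaks of the top score decile, 696 overlapped a domain (37.6%, 35.4 to 39.8), against the 19.2% of all series-level peaks given above.

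Between width classes of shared peaks the score of the own list went up with width. Its median was 2173 in domains, 1443 in intermediate and 785.3 in all narrower shared peaks of replicate 2, and 1397.6, 543.2 and 201.0 in replicate 1. Among the domains of replicate 2 it did not go on rising: the median was 2488.3 from 8 to 10 kb (190 domains), 2678.9 from 10 to 12 kb (132), 1393.8 from 12 to 16 kb (126) and 1113.1 at 16 kb or more (53). The series-level score of the strongest inner peak was higher in each wider class of replicate 2, with medians of 50.9, 56.5, 62.3 and 82.8. In mirrored replicate 1 domains these medians were 57.3, 60.3, 80.7 and 75.1, so the widest class was not the highest. Wider domains hold more inner peaks and so have more chances of a high score, which was not adjusted for. The own score of mirrored domains had medians of 1375.6, 1287.5, 2039.7 and 1254.3. These did not follow the order of replicate 2, and 14 domains made up the widest class. Scores are the authors' own values on a scale that no header gives. Many in the replicate lists are exactly 3100, and a few lie above it, up to 3144.8 among the domains of replicate 2. In replicate 2, 198 domains were at or above it (39.5%, 35.3 to 43.9), against 10.3% of all peaks of that list. The share was 41.1%, 45.5%, 33.3% and 33.96% in the 4 width classes. From the narrowest to the widest class the median number of inner peaks was 6, 7, 8 and 11, and the widest of them measured 3002.5, 3552, 4423 and 6245 bp. The density was 0.626, 0.596, 0.568 and 0.560 per kb. The cover was 73.5%, 76.2%, 77.2% and 78.0%, and the gap 227, 236, 240 and 243 bp. Mirrored replicate 1 domains had densities of 0.498, 0.377, 0.394 and 0.356 per kb. Their cover was 81.2%, 86.6%, 82.2% and 86.2%, and their gap 187, 180.5, 230 and 224 bp. Density, cover and gap thus kept no steady order in replicate 1. The widest inner peak did, with 4143, 5578, 6166 and 7530 bp.

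Replicate 1 reached into the domains far beyond the 1 bp that the rule asked for. It covered a median of 81.6% of a domain (quartiles 65.9% and 93.6%), and 84.4% of a narrower shared peak. The outermost replicate 1 peak began a median of 325 bp inside the left end and stopped 348 bp inside the right end. At least 90% was covered in 174 domains (34.7%, 30.7 to 39.0), against 38.1% of all shared replicate 2 peaks, and under 50% in 67 (13.4%, 10.7 to 16.6), against 13.4%. These shares of the domains are near those of shared peaks in general. In 235 domains (46.9%) a replicate 1 peak was itself 8000 bp or wider, against 1.72% of narrower shared peaks. A narrower peak has less room to overlap a wide one, which was not adjusted for. Conversely, replicate 2 covered a median of 99.5% of a mirrored domain. For a narrower shared peak of replicate 1 that median was 100%. The domains of replicate 1 thus lay almost wholly inside replicate 2 peaks, and those of replicate 2 extended past the replicate 1 peaks. Narrower shared peaks did the same, so this was not particular to domains.

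Replicate 1 often divided a domain. In 188 domains (37.5%, 33.4 to 41.8) there were 2 or more replicate 1 peaks, and in 46 there were 3 or more, against 14.3% of all shared replicate 2 peaks with 2 or more. The share with 2 or more was 22.1%, 37.9%, 46.8% and 69.8% in the 4 width classes, from the narrowest to the widest. Wider peaks have room for more replicate 1 peaks, and these shares were not adjusted for width. Domains had 745 overlaps with replicate 1 peaks in 5917.7 kb, and narrower shared peaks 1613 in 6467.8 kb. By the rule every shared peak has at least 1, which raises the number per kb of narrow ones. Replicate 2 divided 4.74% of the mirrored domains. Together with the domain on III described first, the most divided were on III from 3599584 to 3614881 and on I from 10045867 to 10061004, each with 5 replicate 1 peaks. In the domain from 3599584 the replicate 1 peaks on the right were parted by 18, 37 and 54 bp, and a gap of 2692 bp lay further left. The 244 gaps between replicate 1 peaks inside domains had a median of 449 bp (quartiles 195.5 and 1091.75 bp). Series-level peaks covered 54.5% of the bases in these gaps and 81.8% of the domain bases that lay in replicate 1 peaks, and 55 of the gaps held none. The 1.35 Mb of domain that replicate 1 did not call were covered at 48.2%.

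**Figure D4:**
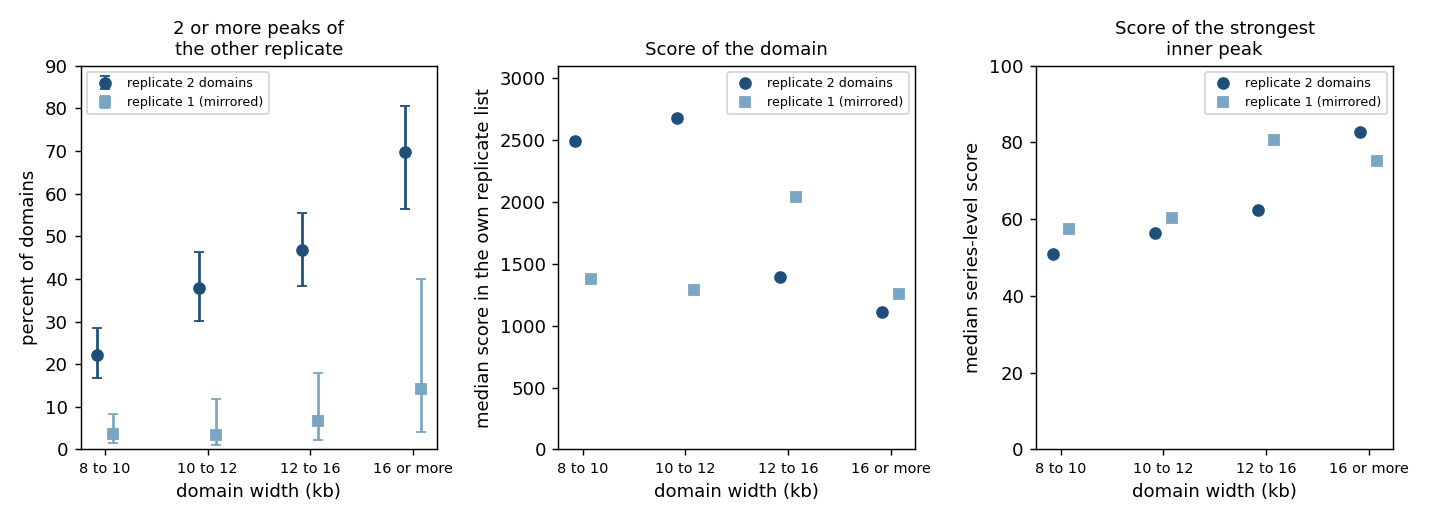
Domains by width class in kb for replicate 2 (circles) and mirrored replicate 1 (squares): percent with 2 or more peaks of the other replicate, with 95% Wilson intervals (left), median score in the own list (middle) and median series-level score of the strongest inner peak (right). In replicate 2 the divided share goes up from 22.1% to 69.8% while the median own score is 2488.3 in the narrowest and 1113.1 in the widest class.

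Domains occurred on all 6 chromosomes. In hermaphrodites both X chromosomes are turned down by dosage compensation, to match the single X of males. There were 89 on X, 101 on I, 71 on II, 85 on III, 79 on IV and 76 on V. Of the shared replicate 2 peaks, 33.3% were domains on X (27.95 to 39.2) and 23.6% on the autosomes (21.7 to 25.7), where the share ran from 20.6% on II to 25.2% on I. In replicate 1 the shares were 18.2% on X (14.2 to 23.0) and 9.84% on the autosomes (8.61 to 11.2). The ratio of X to autosomes was 1.41 in replicate 2 and 1.85 in replicate 1, a mean of 1.63 ± 0.31 (SD, n = 2). With other width thresholds the ratio in replicate 2 was lower, 1.26 from 6000 bp and 1.22 from 10000 bp. This is a ratio of shares within each chromosome's own shared peaks, and X had the fewest of these, 267. As part of the chromosome, domains held 5.52% of X and 5.99% of the autosomes, from 4.29% of V to 7.87% of I. Fewer X domains were divided by replicate 1, 16.9% (10.5 to 26.0), against 42.0% (37.3 to 46.8) of autosomal ones, and the highest share was 52.5% on I. Division went with width, and the median domain was 10113 bp on X and 10917.5 bp on the autosomes; the part of width in this difference was not tested. The median cover was 75.3% on X and 75.1% on the autosomes.

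**Figure D5:**
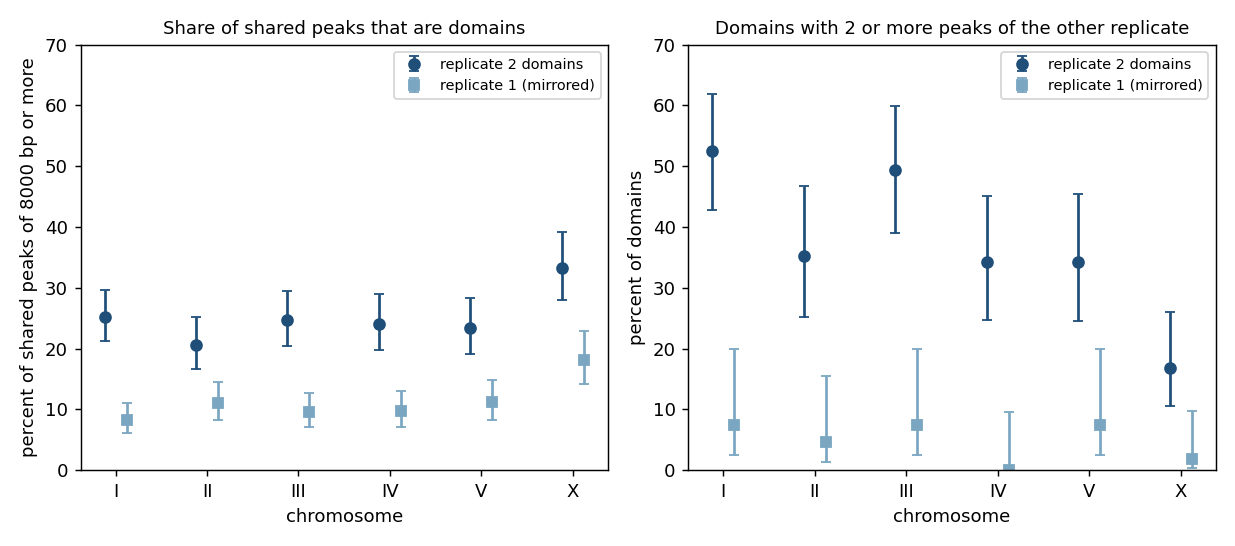
Percent of shared peaks that are 8000 bp or wider (left) and percent of those domains that hold 2 or more peaks of the other replicate (right), by chromosome, with 95% Wilson intervals, for replicate 2 (circles) and mirrored replicate 1 (squares). X has the highest share of domains in both replicates, 33.3% and 18.2%, and the lowest share of divided domains in replicate 2, 16.9%.

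Domains lay farther from other replicate 2 peaks than narrower shared peaks did. The nearest other replicate 2 peak lay a median of 3713 bp from a domain (quartiles 814 and 12818 bp) and 2452 bp from a narrower shared peak (548 and 8651 bp). Within 1000 bp there was another peak for 138 domains (27.5%, 23.8 to 31.6) and for 506 narrower shared peaks (33.5%, 31.2 to 36.0). These distances were not compared in replicate 1.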

How the data were processed

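The 2 AMA-1 ChIP-seq replicates each have a peak list, and a further list belongs to the series. The aligner was BWA and the genome ce10, per the submitters' processing notes. Peaks were called with MACS (replicates) and MACS v2 (series-level list), per the files' source columns, on build WS220, per the file headers. Not given in the sources used here are thresholds, controls and caller settings. The deposited score of each peak is the authors' own value on an unstated scale, so scores were compared only within a list. Start and end are 1-based. The overlap needed was 1 bp. Series-level peaks were clipped to the domain; gaps are the bases between neighbours, and the strongest inner peak has the highest series-level score. The central part ran from 33.3% to 66.7% of the width. No chance test was run. The interval code was tested on simulated data. Domains, lists and comparisons were chosen with earlier results of these data known, and the comparison group of the central 2000 bp was changed after its values were seen. The regions named are, by rule, the 2 widest of each chromosome, the 3 with most inner peaks, the longest inner peak, the highest and lowest cover and most replicate 1 peaks, and those nearest the width threshold on either side. Alternatives changed the width, the overlap rule, the replicates and the series-level list. The tools were pandas 2.3.3 and numpy 2.4.6 for the intervals, scipy 1.17.1 for Wilson intervals and matplotlib 3.10.9, under Python 3.11.15.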

Additional observations from a re-analysis of the deposited data

How the results depend on the processing

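Of 86 alternative values, 43 stayed within the spread between replicates (for the number of domains, within 1.5 times), 38 moved further and 5 changed sign. The spread is that between replicate 2 and mirrored replicate 1, so a value and its mirror image always differ by more than it. The number of domains, 501, was 806 from 6000 bp, 311 from 10000 bp, 253 mirrored, and 294 to 538 when a replicate was left out. The mirrored domains gave 0.446 inner peaks per kb, a cover of 82.3%, a gap of 198 bp, a widest inner peak of 46.5% of the width, 53.0% of strongest peaks in the central part, 99.5% covered by the other replicate and an X ratio of 1.85. Leaving out a replicate gave ranges of 0.461 to 0.610 per kb, 74.8% to 82.3% cover, gaps of 199 to 238 bp, 32.3% to 43.9% for the widest inner peak, 36.2% to 49.3% in the central part and X ratios of 1.39 to 1.80; the upper end of the density and the lower ends of cover, widest and central part came without replicate 1. Series-level peaks at or above the median score gave 0.390 per kb, 69.2% cover and gaps of 282 bp, and merging those closer than 100 bp gave gaps of 300 bp. Fewer or merged peaks widen gaps by construction; the cause of the other moves was not tested.

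The differences from narrower shared peaks in replicate 2 were -0.11 per kb, 14.4 points of cover, 2 bp of gap, -4.07 points for the widest inner peak and -21.7 points in the central part. Against intermediate shared peaks (4 to 8 kb), cover differed by 9.14 points, the gap by -7 bp (a change of sign), the widest inner peak by -0.27 points and the central part by -12.7 points. The others were added after seeing the data. Mirrored replicate 1 gave -0.25 per kb, 11.9 points of cover, 9 bp of gap, -2.73 points for the widest and -9.74 points in the central part. Mirrored against intermediate peaks it gave 5.40 points of cover, 7 bp of gap, 2.11 points for the widest and 0.40 points in the central part, and these last 2 changed sign. Where the strongest inner peak took under 25% of the width, the central part held 24.0% of domains, a difference of -5.27 points. Between the outermost inner peaks the cover differed by 3.0 points in replicate 2 and 4.60 mirrored. With single inner peaks counted as fully covered, these changed sign, to -1.63 and -0.75, and against intermediate peaks they were 2.23 and 1.82. The central 2000 bp differed by 7.95 points from intermediate peaks and 11.9 from all narrower ones, and mirrored by 8.95 and 15.1. No paired analysis was possible because the inputs, which share the replicate numbers, were not analysed here. Read depth is unknown.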

Other observations

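Of the 294 replicate 1 peaks of 8000 bp or more, 41 (13.9%) overlapped no replicate 2 peak, and 37 of the 538 such peaks of replicate 2 (6.88%) overlapped none of replicate 1. Replicate 2 is the larger list, and of the narrower peaks 13.1% of replicate 1 and 53.99% of replicate 2 were unshared. The 41 had a median score of 619.1, at percentile 75.8 of the replicate 1 list, and 3 had a score of 3100. Series-level peaks covered a median of 81.3% of them, against 82.3% of mirrored domains, and 17 held an inner peak of 4000 bp or more. The nearest replicate 2 peak lay a median of 9248 bp away, and within 1000 bp for 4 of the 41. The widest, chosen after the values were seen, ran on V from 13162848 to 13182581 (19734 bp), with 14 series-level peaks over 83.4% of it and the nearest replicate 2 peak 29631 bp away. The 37 wide unshared peaks of replicate 2 had a cover of 61.9%.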
